A study of Ovis aries with 10 samples.

Results

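ZEB1 is the gene of a zinc finger and homeobox transcription factor, and its circular RNAs (circRNAs) are described here in libraries labelled as longissimus dorsi of small-tailed Han sheep. All rows of the circRNA table whose host gene is written exactly as ZEB1 and which have an entry in a library of the series were taken, 8 of the 8721 circRNAs listed in these libraries. A further ZEB1 row has entries only under sample names outside the series and was not used. The members were thus chosen by host name and by having reads here, with 2 as the smallest count listed, so that they were found at all is no result.

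The series holds 10 libraries, labelled with this back muscle, from females studied for the effect of estrogen on muscle growth. The 5 sham libraries (STH) come from small-tailed Han sheep that had a sham operation, and the 5 ovariectomized libraries (OR-STH) from sheep of that breed whose ovaries were removed. No age, allele or drug is given for either group. The labels also name primary myoblasts and describe a culture with an estradiol series, but no library carries a dose, so whole muscle and cultured cells cannot be told apart from the labels. Whether the libraries of a group stem from separate sheep is not stated, and the p-values below rest on the spread between libraries, which may be technical.

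ZEB1 binds E-box sequences through its zinc fingers and recruits co-repressors such as the CTBP proteins. It is best known for silencing epithelial genes such as CDH1 in epithelial-mesenchymal transition. In the muscle lineage it is known to occupy E-boxes that MYOD1 also uses and to hold back genes of muscle differentiation. A circRNA forms when the spliceosome joins a downstream splice donor to an upstream acceptor, and reads across that back-splice junction (junction reads) count it. A junction is 1 position, so junction reads of different circRNAs can be set side by side without a correction for length. They do not measure the linear ZEB1 mRNA or its protein.

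The libraries held 35731 to 67061 junction reads, with ovariectomized replicate 5 the deepest and the others of its group at 39045 to 46968. Of 13 muscle fiber markers, 11 hosted a listed circRNA (all but MYH7 and TNNT1), with summed normalized junction reads of 1548 to 2349 in sham and 1038 to 1851 in ovariectomized libraries. Of 8 satellite cell and myoblast markers 3 did (MET, NCAM1 and DES), with sums of 52.2 to 101.9 and 64.9 to 128.4, while PAX7, MYF5, MYOD1, MYOG and CALCR were at 0. None of 8 fibroblast, 5 immune or 4 Schwann cell markers did, against 4 of 7 endothelial (16.1 to 31.1 and 12.2 to 27.4), 2 of 5 adipocyte (0 to 10.8 and 0 to 8.56) and 1 of 6 smooth muscle and pericyte markers (0 to 3.91 and 0). A marker at 0 here may still be expressed, as junction reads do not measure linear mRNA. In these bulk samples fewer ZEB1-expressing cells and less circRNA per cell cannot be told apart, and the part of cell makeup in the values below was not tested.

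ZEB1 stood high among circRNA hosts. Its circRNAs held 3629 junction reads, 0.815% of the 445393 reads of the series, which placed it at rank 6 of 3436 hosts. The hosts just above it were UBE3A, a ubiquitin ligase gene, with 12596 reads, ANO5, of the anoctamin family, with 7278, and STAU2, which encodes an RNA-binding protein, with 3642. Those just below were ARHGAP10 with 3456 reads, USP3, a deubiquitinase gene, with 3417, and MORC3 with 3171. Within a library the rank of ZEB1 ran from 4 to 18, with a median of 6. Its lowest rank, 18, was in ovariectomized replicate 1.

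The 8 ZEB1 circRNAs lie on chromosome 13, minus strand, so that a higher coordinate is further upstream in the transcript. The build is not given in the sources used here, and coordinates are printed as deposited, with the first base counted as 1. The chromosome was read from the RefSeq gene table, which places 347 of 347 circRNA host entries of that sequence on chromosome 13. The leading circRNA, novel_circ_0011893, runs from 33288522 to 33302091. It joins 3 blocks of 157, 133 and 141 bases into a spliced length of 431 bases. The next in reads, novel_circ_0011888, has the same upstream end at 33302091 but a downstream end at 33208486, a span of 93606 bases against 13570 for the leading one. It is listed with the 157-base and 141-base blocks and, in place of the 133-base block between them, a 201-base block far downstream (33208486 to 33208686), with a spliced length of 499 bases.

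That 201-base block is where the upstream and downstream circRNAs of the gene meet. It is the downstream end of novel_circ_0011888 and the upstream end of novel_circ_0011884 (33167678 to 33208686, 2 blocks, 307 bases) and of novel_circ_0011886 (33179807 to 33208686, 3 blocks, 426 bases). The downstream end at 33167678, in a block of 106 bases, is shared by novel_circ_0011884, novel_circ_0011882 (33167678 to 33179968, 268 bases) and novel_circ_0011881 (33167678 to 33171777, 309 bases). The downstream end at 33288522 is shared by the leading circRNA, novel_circ_0011892 (33288522 to 33301990, 197 bases) and novel_circ_0011895 (33288522 to 33338302, 403 bases). In all, the 8 circRNAs are built of 10 distinct blocks of 56 to 203 bases and use 6 upstream and 4 downstream ends. The upstream end of novel_circ_0011892 lies inside the 157-base block, which it holds as a block of 56 bases.

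**Figure D1:**
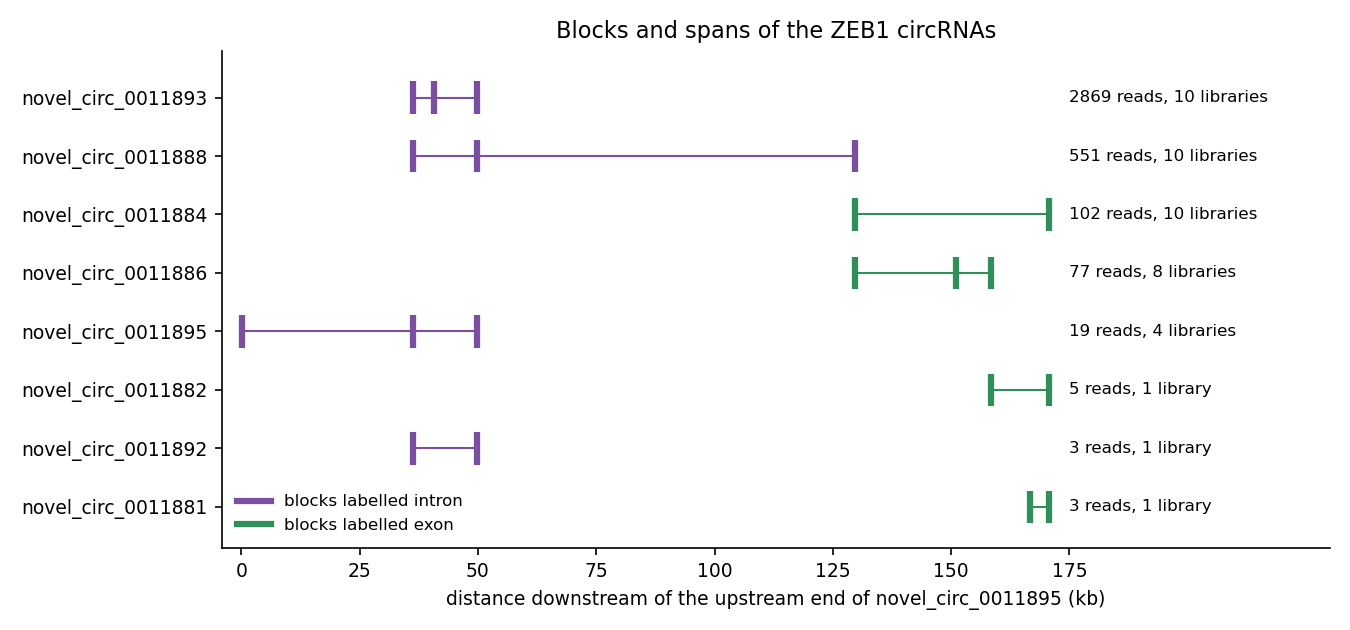
Blocks (vertical bars, not drawn to width) and spans (lines) of the 8 ZEB1 circRNAs in the direction of transcription, in kb downstream of the upstream end of novel_circ_0011895, with total junction reads and the number of libraries that list each. The leading circRNA, with 2869 reads, has a short span near the upstream side, and the 201-base block is labelled intron in novel_circ_0011888 and exon in novel_circ_0011884 and novel_circ_0011886.

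The deposited labels call the blocks of novel_circ_0011893, novel_circ_0011888, novel_circ_0011892 and novel_circ_0011895 intron and those of the other 4 exon. The 201-base block, at the same coordinates, carries the label intron in novel_circ_0011888 and exon in novel_circ_0011884 and novel_circ_0011886. Among the 8721 circRNAs listed in these libraries, 0 hold blocks of both labels, and 203 of the 547 circRNAs labelled intron (37.1%) hold a block that another circRNA labels exon. Of those 547, 355 have 2 or more blocks. By reads, novel_circ_0011893 and novel_circ_0011888 rank 1 and 2 among the circRNAs labelled intron, and the former holds 17.9% of the 15985 reads under that label. The label intron of these ZEB1 circRNAs is therefore given as deposited and not used to sort them further.

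Most ZEB1 reads came from 1 circRNA. Novel_circ_0011893 held 2869 of 3629 reads (79.1%), novel_circ_0011888 held 551 (15.2%), and both together held 94.2%. The remaining 6 shared 209 reads: 102 for novel_circ_0011884, 77 for novel_circ_0011886, 19 for novel_circ_0011895, 5 for novel_circ_0011882 and 3 each for novel_circ_0011892 and novel_circ_0011881. Among all 8721 circRNAs the leading one ranked 7 and novel_circ_0011888 ranked 112. Among the 42 hosts with 8 circRNAs, the share of the leading circRNA had a median of 48.9%, and ZEB1 was at rank 3. Over the 753 hosts with enough reads for a test, whatever their number of circRNAs, that median was 75.2%. Of the hosts nearest to ZEB1 in reads, UBE3A (98.5%), ANO5 (94.2%), USP3 (93.1%) and MORC3 (88.1%) had a higher leading share. STAU2 (77.7%) and ARHGAP10 (64.1%) had a lower one.

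Presence varied with abundance. Novel_circ_0011893, novel_circ_0011888 and novel_circ_0011884 were listed in all 10 libraries, and novel_circ_0011886 in 8, missing from sham replicate 2 and ovariectomized replicate 3. Novel_circ_0011895 was listed in 4 libraries, 4, 4 and 5 reads being found in sham replicates 2, 4 and 5 and 6 reads in ovariectomized replicate 3. The last 3 were each listed once: novel_circ_0011882 with 5 reads in sham replicate 5, novel_circ_0011892 with 3 in sham replicate 4 and novel_circ_0011881 with 3 in ovariectomized replicate 1. At so few reads a missing entry cannot be told from absence.

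For the leading circRNA, novel_circ_0011893, sham replicates 1 to 5 had 208, 314, 211, 269 and 413 junction reads, and ovariectomized replicates 1 to 5 had 164, 300, 247, 296 and 447. Normalized junction reads (reads divided by the library's scaled size, relative to the geometric mean of the 10 libraries) were 270.7, 377.8, 227.4, 264.8 and 417.0 in sham and 169.5, 305.2, 260.8, 256.6 and 277.0 in ovariectomized libraries. Sham replicates 2 and 5 were the highest, ovariectomized replicate 1 was the lowest, and the groups overlapped. The means were 311.5 ± 81.3 in sham and 253.8 ± 50.9 after ovariectomy (SD, n = 5 per group). The log2 fold change of ovariectomized over sham was -0.28 ± 0.21 (SE), with a 95% interval of -0.72 to 0.16 and an adjusted p of 0.847 in limma voom. The unadjusted limma voom p was 0.201. For novel_circ_0011893 the authors deposited mean signals of 299.6 for sham and 249.1 for ovariectomized. Their unadjusted p was 0.279, the lowest of their 8 ZEB1 values, and their adjusted p was 0.966.

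Novel_circ_0011888 had 27, 42, 31, 65 and 50 junction reads across sham replicates 1 to 5 and 28, 23, 44, 49 and 192 in ovariectomized replicates 1 to 5. In normalized reads these were 35.1, 50.5, 33.4, 64.0 and 50.5 in sham and 28.9, 23.4, 46.5, 42.5 and 119.0 in ovariectomized libraries. Ovariectomized replicate 5 stood far above the other 9 libraries, while the other 4 of its group lay below the sham mean. The means were 46.7 ± 12.6 in sham and 52.1 ± 38.6 after ovariectomy (SD, n = 5 per group), with a limma log2 fold change of 0.01 ± 0.39 (SE), a 95% interval of -0.83 to 0.85 and an adjusted p of 0.987. It was -0.40 without ovariectomized replicate 5 (limma adjusted p = 0.86). The estimate for this circRNA thus had no settled direction. Its sign turned without that library, and also when sham replicate 1 (-0.08) or 3 (-0.08) was left out.

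**Figure D2:**
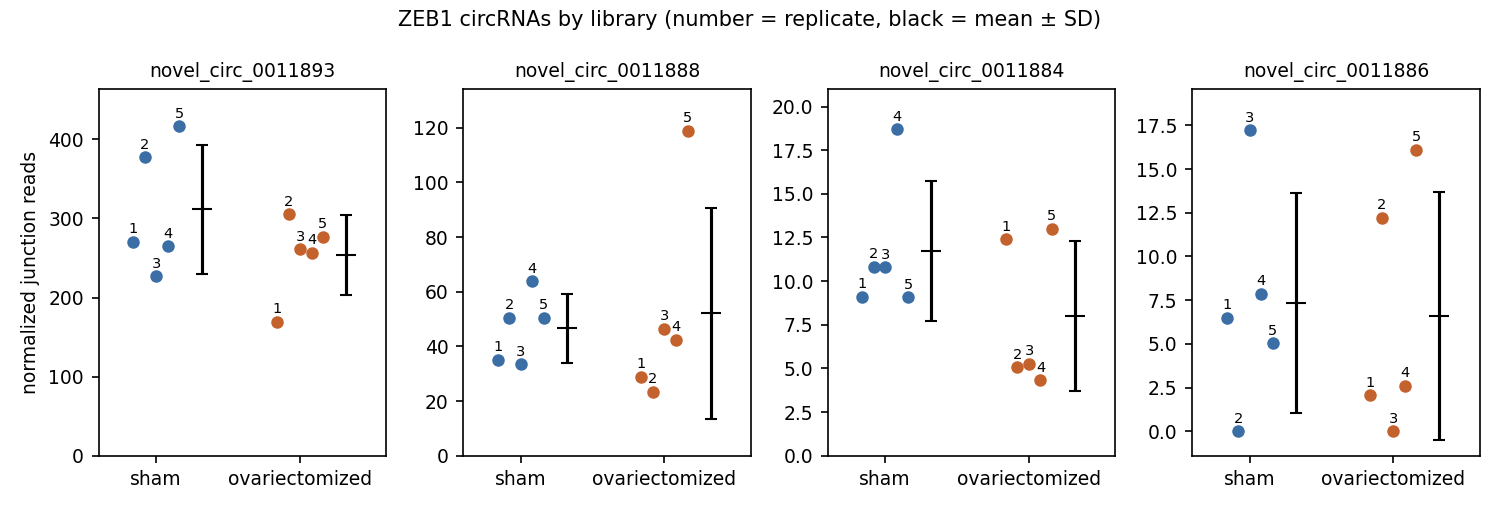
Normalized junction reads of the 4 ZEB1 circRNAs listed in at least 8 libraries (vertical axes start at 0 or just under it), 1 point per library with its replicate number, and the mean ± SD of the 5 libraries of each group in black. The groups overlap for each of the 4, and ovariectomized replicate 5 lies at 119.0 for novel_circ_0011888, where the other libraries have 23.4 to 64.0.

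Neither of these circRNAs differed between the groups past the threshold. They are the 2 of the 8 ZEB1 circRNAs that passed the filter on low counts, and 0 of the 2 had an adjusted p under 0.05, as for all 738 circRNAs tested (0.0%). At an unadjusted p under 0.05 there were 0 of 2, against 42 of 738 (5.69%). The estimate was lower after ovariectomy for 1 of the 2 and for 387 of the 738 (52.4%). No ZEB1 circRNA was called under any of the 17 alternatives run, including limma trend on log2 values. The intervals above still allow changes of the leading circRNA that reach -0.72 on the log2 scale, so these libraries do not show that its level was the same.

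The rarer circRNAs that meet the 201-base block gave the same answer. Novel_circ_0011884 had 7, 9, 10, 19 and 9 reads across sham and 12, 5, 5, 5 and 21 across ovariectomized replicates 1 to 5. Its normalized reads were 11.7 ± 4.01 in sham and 8.02 ± 4.3 after ovariectomy (SD, n = 5 per group, exact permutation p = 0.183, two-sided). Sham replicate 4 and ovariectomized replicates 1 and 5 were the highest, and the other ovariectomized libraries lay below all of sham. Novel_circ_0011886 had 5, 0, 16, 8 and 5 reads across sham and 2, 12, 0, 3 and 26 across ovariectomized replicates 1 to 5, a missing entry being written as 0. Its normalized reads were 7.34 ± 6.29 and 6.6 ± 7.11 (SD, n = 5 per group, exact permutation p = 0.881, two-sided), with wide scatter in both groups. Over the 5 exact tests made on ZEB1 values, each with 252 relabellings and a smallest possible p of 0.00794, the lowest Benjamini-Hochberg adjusted p was 0.86.

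Summed over its circRNAs, ZEB1 had 247, 369, 268, 368 and 487 junction reads across sham replicates 1 to 5 and 209, 340, 302, 353 and 686 in ovariectomized replicates 1 to 5. Scaled with factors from the table of host sums, these were 331.1, 417.6, 288.5, 359.9 and 489.2 normalized reads in sham and 217.3, 342.4, 323.3, 308.4 and 436.5 in ovariectomized libraries. Replicate 5 was the highest of each group and the groups overlapped. As a share of a library's junction reads ZEB1 ran from 0.504% in ovariectomized replicate 1 to 1.06% in sham replicate 5. The means were 377.3 ± 78.2 and 325.6 ± 78.4 (SD, n = 5 per group), a log2 fold change of -0.21 ± 0.20 (SE) with a 95% interval of -0.63 to 0.20 and a limma adjusted p of 0.846 over 753 hosts, of which 0.0% were called and 5.98% had an unadjusted p under 0.05. The estimate ran from -0.35 without ovariectomized replicate 5 to -0.06 without ovariectomized replicate 1, and was -0.07 with library totals as the scaling.

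The ZEB1 sum was among the steadier host values. Its coefficient of variation over the 10 libraries was 22.4%, where the median tested host had 40.1%, and 57 of 753 hosts varied less. That of novel_circ_0011893 was 25.1%, with 75 of 738 circRNAs below it, against 5.90% from counting error alone at its mean. That of novel_circ_0011888 was 55.1%, above the median of 42.9%, against 13.5% from counting error. Abundant circRNAs have less counting error, so these places are a description of these libraries.

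The leading circRNA and novel_circ_0011888 kept their order in each library, but their shares varied. The rarer isoforms changed places: novel_circ_0011884 and novel_circ_0011886 had 7 and 5 reads in sham replicate 1 but 10 and 16 in sham replicate 3. The leading circRNA took 84.2%, 85.1%, 78.7%, 73.1% and 84.8% of ZEB1 reads across sham replicates 1 to 5, and 78.5%, 88.2%, 81.8%, 83.9% and 65.2% in ovariectomized replicates 1 to 5. It had the most ZEB1 reads in 10 of 10 libraries, and novel_circ_0011888 had the next most in 10 of 10. The lowest share, in ovariectomized replicate 5, had a 95% Clopper-Pearson interval of 61.5% to 68.7%, which reaches only that of sham replicate 4 (68.3% to 77.6%). Means were 81.2% ± 5.22 in sham and 79.5% ± 8.76 after ovariectomy (SD, n = 5 per group), and the exact permutation p was 0.738 (two-sided, adjusted 0.881). The difference of -1.69 percentage points became 1.90 without ovariectomized replicate 5.

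Set against the leading circRNA alone, novel_circ_0011888 took 30.1% of the reads of both in ovariectomized replicate 5, with a 95% interval of 26.5% to 33.8%. In the other 9 libraries it took from 7.12% (ovariectomized replicate 2) to 19.5% (sham replicate 4). The interval of ovariectomized replicate 5 overlapped none of the other 9, of which the highest upper bound was 24.1%. These intervals cover counting error only, with each read taken as an independent draw. The reads carry no molecular identifiers, so that independence was not tested.

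The 3 circRNAs that hold the 201-base block, a grouping made after the values were seen, were all at their highest of the ovariectomized group in replicate 5. Together they took 34.8% of ZEB1 reads there (95% interval 31.3% to 38.5%), against 11.8% to 20.1% in the other 4 ovariectomized libraries and 13.1% to 25% in sham. Their summed normalized reads were 148.1 in that library, 46.3 ± 5.14 in the other 4 (SD, n = 4) and 65.8 ± 14.8 in sham (SD, n = 5). In ovariectomized replicate 5 the leading circRNA was 1.12 times its mean in the other 4, and novel_circ_0011888 was 3.37 times its own. Over the 738 tested circRNAs the median of this ratio was 0.93, and 11 (1.49%) reached at least 3.37. This library also had the most junction reads, and the part of depth in the isoform shares was not tested.

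**Figure D3:**
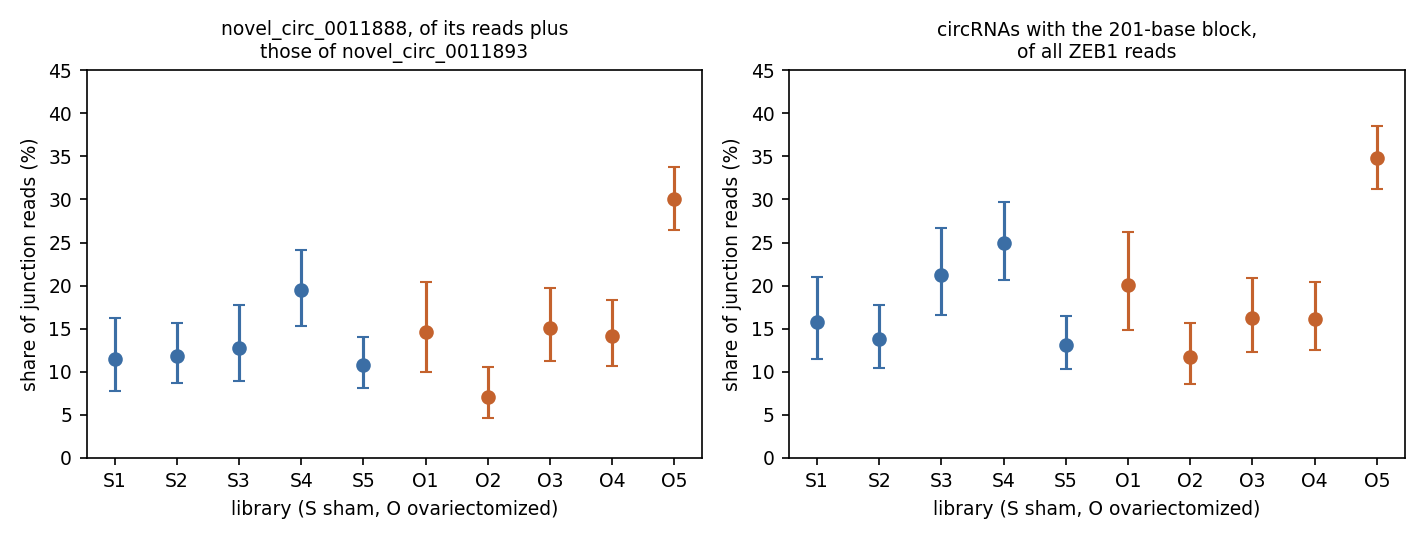
Share of junction reads in percent by library (S sham, O ovariectomized, number = replicate) for novel_circ_0011888 among its own reads and those of novel_circ_0011893 (left) and for the 3 circRNAs with the 201-base block among all ZEB1 reads (right), with 95% Clopper-Pearson intervals that cover counting error only. Ovariectomized replicate 5 is the highest in both panels, at 30.1% and 34.8%, and novel_circ_0011888 holds 192 of the 239 reads behind the latter.

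The leading circRNA, picked for having the most junction reads, also had the gene's highest share of junction reads among junction and non-junction reads. Its non-junction reads alone did not set it apart, at 77 to 122 against 92 to 198 for novel_circ_0011888 and 80 to 89 for novel_circ_0011895. Its higher share within the gene thus largely restates its junction count. The sources used here do not define non-junction reads, so they are given as deposited, without a reading of what they count. For novel_circ_0011893 they numbered 98, 94, 104, 102 and 122 in sham and 77, 92, 86, 115 and 104 in ovariectomized replicates 1 to 5. Junction reads outnumbered them in 10 of 10 libraries and made up 67.0% to 81.1% of both kinds. None of the other 7 ZEB1 circRNAs had more junction than non-junction reads in any library. Over all libraries the junction share of the leading circRNA was 74.3%, against a median of 13.5% over the 738 tested circRNAs, of which 8 had a higher one.

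For novel_circ_0011888 the junction share was 28.9% over all libraries. It ran from 13.9% to 32.4% in 8 libraries, was 37.4% in sham replicate 4 and reached 49.2% in ovariectomized replicate 5, where 192 junction reads stood beside 198 non-junction reads. Its non-junction reads exceeded those of the leading circRNA in 10 of 10 libraries. The rarer circRNAs had 79 to 194 non-junction reads beside at most 26 junction reads. Their junction shares had medians of 5.48% for novel_circ_0011884, 3.96% for novel_circ_0011886 and 5.01% for novel_circ_0011895 over the libraries that list them.

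**Figure D4:**
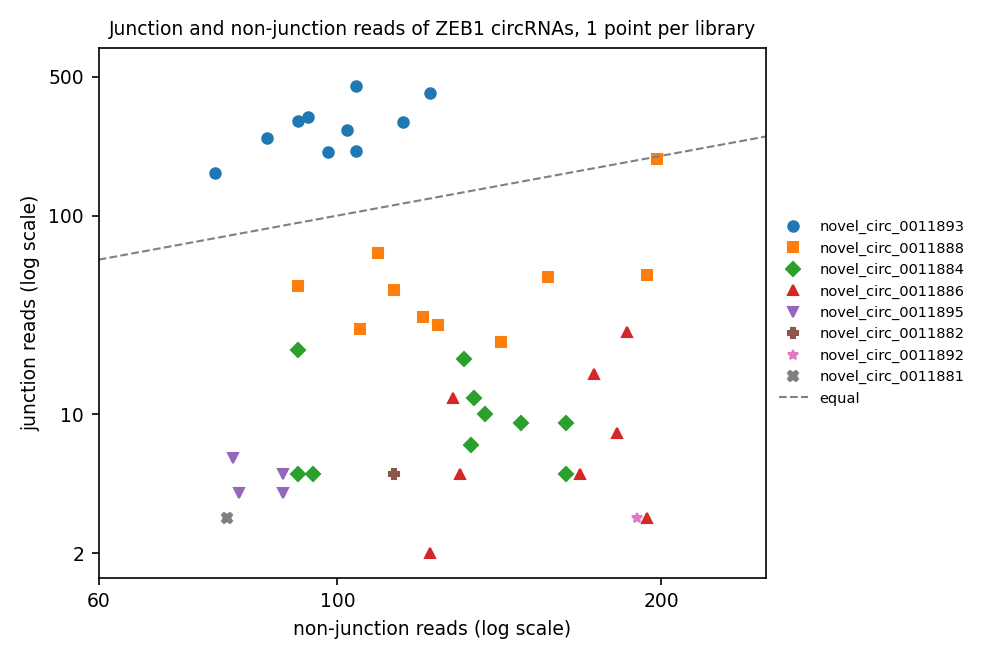
Junction reads against non-junction reads of the ZEB1 circRNAs (both axes logarithmic), 1 point for each library that lists the circRNA, with a dashed line where both are equal. All 10 points of novel_circ_0011893 lie above the line, and those of every other ZEB1 circRNA lie below it, the nearest being novel_circ_0011888 in ovariectomized replicate 5 (192 and 198).

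The junction share of the leading circRNA did not differ between groups beyond the spread, at 72.3% ± 4.81 in sham and 74.4% ± 4.89 after ovariectomy (SD, n = 5 per group, exact permutation p = 0.516, two-sided). The number of ZEB1 circRNAs listed was 4, 4, 4, 6 and 6 in sham and 5, 4, 4, 4 and 4 in ovariectomized replicates 1 to 5. Its means were 4.8 ± 1.1 and 4.2 ± 0.447 (SD, n = 5 per group, exact permutation p = 0.444, two-sided), and the deepest library, ovariectomized replicate 5, listed 4.

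Of 54 genes that act with ZEB1 or in its pathway, 18 hosted a listed circRNA and 5 had enough reads for a test, with 0 past the threshold, where 0.0% of all hosts were called. Estimates were above 0 for 2 and below 0 for 3 of these 5, where 51.8% of all 753 hosts were below 0. The list's median log2 fold change was -0.13 and that of all hosts -0.02, and 0 of the 5 had an unadjusted p under 0.05. ZEB2, the paralog of ZEB1, and the other repressors of epithelial genes SNAI1, SNAI2, SNAI3, TWIST1 and TWIST2 had no listed circRNA. The same held for the epithelial gene CDH1 and the mesenchymal genes CDH2, VIM and FN1, for the epithelial splicing factor genes ESRP1 and ESRP2, and for the myogenic factors MYOD1, MYF5 and MYOG. The share of all annotated genes with a listed circRNA is not given here. The 18 of 54 and these absences are thus not read as a trait of the pathway.

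Among the tested hosts, QKI, which encodes an RNA-binding protein known to promote circRNA formation in epithelial-mesenchymal transition, had 71.9 ± 19.7 normalized reads in sham and 93.8 ± 41.3 after ovariectomy (SD, n = 5 per group). Its log2 fold change was 0.31 ± 0.28 (SE), and its groups overlapped, at 48.9 to 101.5 in sham and 55.1 to 156.1 in ovariectomized libraries. The E-box binding factor gene TCF4 was at 0.22 ± 0.49 and the splicing regulator gene MBNL1 at -0.13 ± 0.53 on the log2 scale. The muscle transcription factor genes MEF2A and MEF2C were at -0.54 ± 0.51 and -0.87 ± 0.52. Limma adjusted p-values of the 5 ran from 0.782 to 0.949.

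The 13 pathway hosts below the filter had few reads over the 10 libraries. Among the TGF-beta signalling genes, the ligand gene TGFB2 had 79 reads and the signal transducer genes SMAD3 and SMAD4 had 13 and 108. Among co-factors of transcription, KAT2B had 43 reads, CTBP2 39, KDM1A 7 and EP300 4. TCF12, another E-box binding factor, had 20, and the DNA-binding transcription factor gene TEAD1 had 13. The splicing factor gene RBFOX2 had 24, the microRNA-processing gene DICER1 56, the ubiquitin ligase subunit gene FBXW7 12 and the kinase gene ATM 71.

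The hosts whose summed reads followed those of ZEB1 most closely over the 10 libraries, by Pearson correlation of log2 normalized junction reads over the other tested hosts, were UBE3D (r = 0.926), CYFIP1 (0.851), SLC8A1 (0.796), MIPOL1 (0.787) and EEFSEC (0.782). UBE3D encodes a ubiquitin ligase, CYFIP1 a subunit of the actin-regulating WAVE complex, SLC8A1 a sodium-calcium exchanger and EEFSEC the elongation factor for selenocysteine. UBE3D had 23.4 ± 10.3 and 18.2 ± 7.84 normalized reads, and EEFSEC, with 1322 reads the most abundant of the 5, had 152.3 ± 57.4 and 103.7 ± 37.5 (sham and ovariectomized, SD, n = 5 per group). The 10 values share libraries, depth and scaling, and the hosts were picked as the highest of many, so these coefficients are a description.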

How the data were processed

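A strand-specific kit was used for the libraries, per the labels' protocols. The submitters' processing notes name HISAT2; what called the circRNAs, on which build and annotation, is not given in the sources used here. The authors deposited whole-number junction and non-junction counts packed in lists, and 10 sample names in those lists match no label and were left out. The second table holds the authors' mean normalized signal, per the file headers, and the log2 fold change (sham over ovariectomized), p-value and adjusted p-value. Its means equal junction counts over median-of-ratios factors within 3.16e-07.

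The members and gene lists were chosen with earlier results of these data known. The counts were unpacked and a missing entry set to 0. Tests took circRNAs, or host sums, with a total of at least 15 and with 10 or more reads, at median depth, in at least 5 libraries. As the counts come in packed lists, limma voom 3.58.1 (R 4.3.3, statmod 1.5.0) with robust variances was used, with trimmed mean of M values scaling on the tested rows (30% and 5% trimmed) and Benjamini-Hochberg adjustment over all 738 circRNAs or 753 hosts, threshold 0.05. The functions were tested on simulated data. Single values were tested by exact permutation, and intervals of shares are 95% Clopper-Pearson (scipy 1.17.1). Named are all ZEB1 circRNAs, 3 hosts on each side in reads, the 5 most alike hosts and, per direction, the 3 pathway hosts with the smallest p.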

Additional observations from a re-analysis of the deposited data

Results flagged for a closer look

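Of 23 groups of ZEB1 values examined for a library far from the others of its group, 8 had one, where chance gives about 1 in 20 for normally spread values. Where a single library of a group lists a circRNA this happens by construction, as for the values of 3.10 normalized reads of novel_circ_0011881 in ovariectomized replicate 1, 5.05 of novel_circ_0011882 in sham replicate 5, 2.95 of novel_circ_0011892 in sham replicate 4 and 6.34 of novel_circ_0011895 in ovariectomized replicate 3, with no entry in the other 4 libraries of each group. The number of ZEB1 circRNAs listed in ovariectomized replicate 1, 5 against 4 in the others, follows from the entry of novel_circ_0011881 there.

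Novel_circ_0011888 had 119.0 normalized reads in ovariectomized replicate 5, where the others of the group had 23.4 to 46.5. Of the 738 tested circRNAs, 11 had this library as far above its group by the same measure. In sham replicate 4, novel_circ_0011884 had 18.7 normalized reads against 9.09 to 10.8 in the others, and novel_circ_0011888 took 19.5% of the reads of the 2 leading circRNAs against 10.8% to 12.8%.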

How the results depend on the processing

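The ZEB1 sum, the leading circRNA, the number of ZEB1 circRNAs listed and the junction share of the leading circRNA kept their direction and stayed short of the threshold under all alternatives run for each (17, 17, 13 and 12). Log2 fold changes ran from -0.35 to -0.06 for the sum and from -0.36 to -0.12 for the leading circRNA. The counts of ZEB1 circRNAs and of pathway hosts past the threshold were 0 in each of 17. Novel_circ_0011888 changed sign in 5 of 17, to -0.049 in limma trend with a pseudocount of 1, -0.21 with sample quality weights, and between -0.40 and 0.25 when 1 library was left out; the cause was not tested. The share of the leading circRNA changed sign in 1 of 12, and ran from -3.87 to 1.90 percentage points with 1 library left out. With the replicate block the sum was at -0.22 (limma adjusted p = 0.861), and the block changed no call; the correlations of same-numbered libraries, -0.11 to 0.19, do not show that the numbers pair the samples, and 1 of 5 sham libraries correlated best with its own number. Depth limits the 6 rarer circRNAs, which no fit with the main filter reached.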
